A study of Mus musculus with 20 samples.

Results

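Cells make cholesterol and fatty acids from the same precursor, acetyl-CoA, by pathways that part at the first steps. The 29 genes described here are the enzymes and regulators of both pathways: 21 belong to the sterol branch, which the transcription factor SREBP2 (gene Srebf2) controls, and 8 to the fatty acid branch, which SREBP1 (gene Srebf1) controls. They are the rows of the expression table whose gene symbol is one of the 29 names, out of 24795 genes in the table, and all 29 passed the filter on low values and were tested. Their levels were compared in 3 groups of mouse intestinal libraries: 6 from Apc Min mice treated with DM-aKG, 7 from Apc Min mice with a control treatment, and 7 from wild-type (WT) mice, given in their source labels as having had no treatment.

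In a cell low in sterols the escort protein Scap carries the SREBPs out of the endoplasmic reticulum to be cleaved, and the freed factors enter the nucleus and switch on the synthesis genes. Sterols hold Scap back through Insig1, which is itself a target of the pathway. In the intestine, crypt cells make sterols for new membranes, while enterocytes also take up cholesterol from food.

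The Min allele of Apc ends the protein early. In cells that have lost Apc function, Wnt signalling is no longer held in check, and adenomas form in the gut. DM-aKG, the dimethyl ester of alpha-ketoglutarate, passes the cell membrane and releases that metabolite of the TCA cycle inside. The labels give no dose, duration, age or sex, and do not say whether the libraries of a group came from separate mice, so the p-values below measure only the spread between these libraries. For all 3 groups, WT included, the protocol labels list growth in organoid medium and treatment in medium low in glutamine, and name intestinal organoids as the tissue, while the titles name tissue. The epithelial gene Epcam lay between 506 and 1090 RPKM (reads per kilobase of gene, relative to the mapped reads of the library) over the 20 libraries, the smooth muscle gene Myh11 between 36.8 and 213 RPKM and the leukocyte gene Ptprc between 1.01 and 9.93 RPKM, so none of these marker genes was at 0 in any library. In such bulk libraries, fewer cells of a type and less RNA per cell cannot be told apart.

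The stretches before the transcription starts are shown first, because SREBPs act at short DNA elements there. Promoter sequence from RefSeq (build GRCm38.p6) was at hand for 23 of the 29 genes, and 250 bases before the start were searched on both strands for TCACNCCAC, a sterol regulatory element that SREBPs bind, for its first 8 letters TCACNCCA, for CACGTG, the E-box to which SREBPs can also bind, and for CCAAT, the box of the partner factor NF-Y. The CCAAT box was in 16 of 17 sterol genes with a promoter (94.1%) and in 3 of 6 fatty acid genes (50.0%), beside 37.5% of the 27025 genes in the promoter table. The element TCACNCCA was in 3 of 17 sterol genes (17.6%) and in 0 of 6 fatty acid genes, beside 4.2% of all, and its longer form TCACNCCAC was in 1 of 17 sterol genes, Hmgcs1, beside 1.22% of all. CACGTG was in 4 of 17 sterol genes (23.5%: Hsd17b7, Sc5d, Dhcr7 and Insig1) and in 0 of 6 fatty acid genes, beside 6.86% of all. These counts describe letters in one window, and no binding was measured. The 4 stretches below show a mevalonate enzyme, the SREBP2 gene, its feedback regulator and the fatty acid synthase gene. They run 5′ to 3′ and stop before the start in RefSeq or, where it comes earlier, in GENCODE. Capitals mark the searched letters, where ATTGG is CCAAT on the other strand and CCAATTGG in Fasn holds both, overlapping.
Hmgcs1, chr13:119690101-119690350, plus strand: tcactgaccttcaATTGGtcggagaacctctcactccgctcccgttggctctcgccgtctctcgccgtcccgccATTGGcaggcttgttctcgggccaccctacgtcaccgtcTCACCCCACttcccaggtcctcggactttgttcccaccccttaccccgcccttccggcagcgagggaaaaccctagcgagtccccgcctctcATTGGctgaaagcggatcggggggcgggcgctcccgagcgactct
Srebf2, chr15:82147019-82147180, plus strand: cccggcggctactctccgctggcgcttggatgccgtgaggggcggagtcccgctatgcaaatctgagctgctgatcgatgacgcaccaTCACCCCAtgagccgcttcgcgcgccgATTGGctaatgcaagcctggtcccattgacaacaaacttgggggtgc
Insig1, chr5:28071162-28071362, plus strand: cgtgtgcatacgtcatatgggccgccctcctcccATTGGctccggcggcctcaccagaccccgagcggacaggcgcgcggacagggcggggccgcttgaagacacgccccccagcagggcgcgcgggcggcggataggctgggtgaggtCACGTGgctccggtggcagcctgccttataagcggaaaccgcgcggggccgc
Fasn, chr11:120824548-120824797, minus strand: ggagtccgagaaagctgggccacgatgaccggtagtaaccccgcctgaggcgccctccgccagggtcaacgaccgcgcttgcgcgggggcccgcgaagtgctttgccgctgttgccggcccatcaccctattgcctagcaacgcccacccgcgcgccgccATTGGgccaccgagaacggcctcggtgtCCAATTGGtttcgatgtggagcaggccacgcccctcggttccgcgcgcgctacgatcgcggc
In Hmgcs1 the sterol element begins 137 bases before the RefSeq start, between CCAAT boxes. In Srebf2 TCACCCCA begins 162 bases before the RefSeq start and a CCAAT box 135 bases before it. The printed Srebf2 stretch stops earlier, at the GENCODE start, so these 2 distances do not count from its last base.

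Levels per kilobase differed widely between the 29 genes, and so did their spread over the libraries. In the sterol branch, Hmgcs1, the enzyme that makes HMG-CoA, had the highest single value, 260 RPKM, and Mvk, mevalonate kinase, the lowest, 3.87 RPKM. The ratio of the highest to the lowest library lay between 2.37 (Stard4) and 7.31 (Fdps) for the 21 sterol genes. In the fatty acid branch it lay between 3.3 (Srebf1) and 198 (Scd1).

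The first comparison asks how the pathways differed after DM-aKG. Most sterol synthesis genes, from the first enzyme to those that act on lanosterol, were lower in DM-aKG Apc Min libraries than in control Apc Min libraries, while 7 of the 8 fatty acid genes did not pass the test. By limma on log2(RPKM + 1), at a Benjamini-Hochberg adjusted p under 0.05 over all 12433 genes tested, 15 of 21 sterol genes fell (71.4%) and 0 rose, where 27.6% of all genes tested fell and 5.91% rose. At an unadjusted p under 0.05, 17 sterol genes were lower and 0 higher. The median log2 change was -0.65 over the sterol genes and -0.14 over all genes tested, and 20 of 21 sterol genes were below 0. In the fatty acid branch 1 of 8 genes fell (12.5%), Scd2, with a median change of -0.21. That median moved with single libraries. It was -0.51 without DM-aKG replicate 6 (sterol median -0.62) and -0.05 without control replicate 6 (sterol median -0.55). With the mean of adipocyte genes as a covariate it was -0.53 (sterol median -0.61). The median SE was 0.32 in the fatty acid branch and 0.21 in the sterol branch. Whether the branches differ in their change was not tested. Summed over the 21 sterol genes, the level was 411 to 526 RPKM in DM-aKG libraries and 535 to 949 RPKM in control libraries, which did not overlap. The sum gives most weight to abundant genes. The mean log2(RPKM + 1) of the same genes did overlap, at 3.95 to 4.36 with DM-aKG and 4.31 to 5.14 in controls. How many of all genes tested did not overlap between groups is not reported here. Where a lack of overlap is given below, it describes single genes only.

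**Figure D1:**
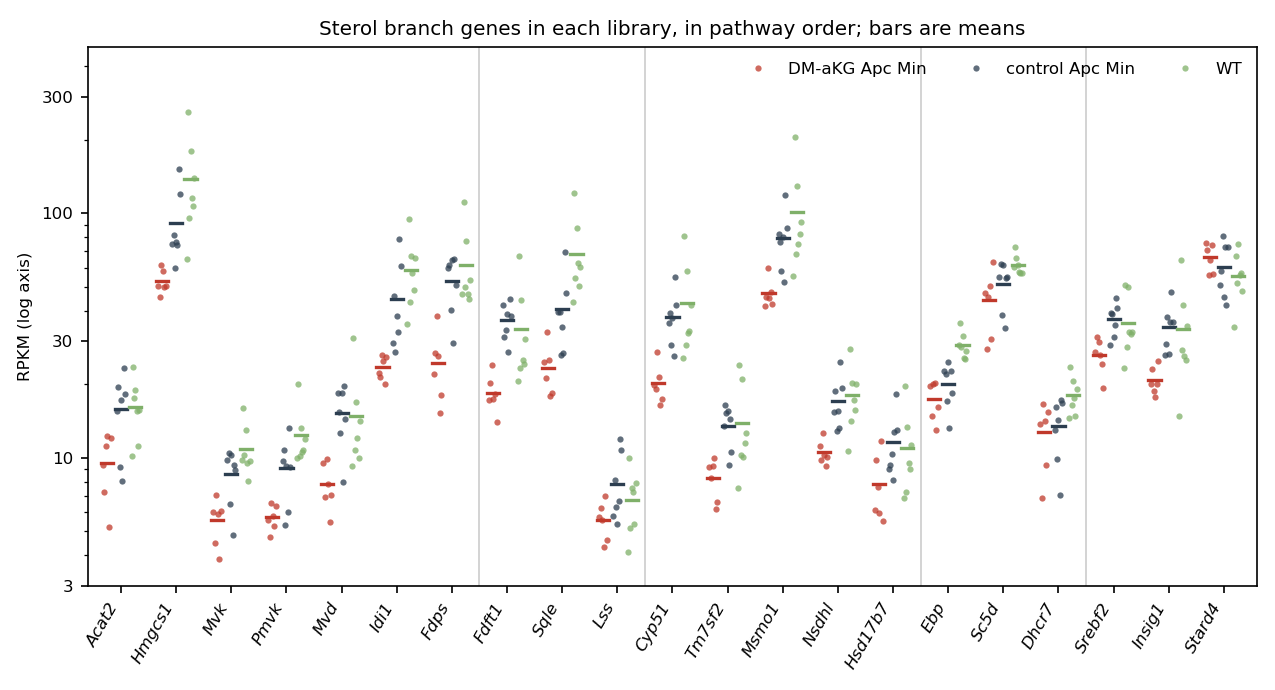
Level of each of the 21 sterol branch genes in RPKM on a log axis, in pathway order; each dot is 1 library, with DM-aKG Apc Min left, control Apc Min in the middle and WT right, and the short bars are group means. DM-aKG dots lie below most control dots from Acat2 to Nsdhl, and the 3 groups mix at Stard4.

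The enzymes from acetyl-CoA to farnesyl diphosphate all fell: 7 of 7 passed the test, with log2 changes of -1.10 to -0.54. Fdps (chr3:89093588-89101959, mm10), which makes farnesyl diphosphate, the branch point to sterols and to prenylated proteins, fell most. Its lowest, median and highest values were 15.2, 24.2 and 38.2 RPKM in DM-aKG libraries, against 29.5, 59.9 and 65.2 RPKM in control libraries. All but DM-aKG replicate 3 lay below every control library. The log2 change was -1.10 ± 0.23 (SE) with an adjusted p of 0.0012 (limma). Idi1, the isomerase that makes dimethylallyl diphosphate, had 20.1, 23.6 and 26.4 RPKM with DM-aKG and 27, 38.2 and 78.8 RPKM in controls. Its groups did not overlap, and it fell by 0.81 ± 0.23 (adjusted p 0.00918, limma). Hmgcs1 had 45.6, 50.5 and 61.5 RPKM with DM-aKG and 59.7, 76.7 and 152 RPKM in controls, overlapping at the edge, with a change of -0.72 ± 0.25 (adjusted p 0.0296, limma). Acat2, the thiolase that joins acetyl-CoA units, fell by 0.65, Mvk by 0.54, Pmvk, phosphomevalonate kinase, by 0.54 and Mvd, mevalonate diphosphate decarboxylase, by 0.87 on the same scale.

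Of the 3 genes that build squalene and close it to lanosterol, 2 fell. Fdft1 (chr14:63145150-63179578), squalene synthase, had 14, 17.8 and 23.9 RPKM in DM-aKG libraries and 27, 38.2 and 44.6 RPKM in control libraries, with no overlap. It fell by 0.94 ± 0.21 (adjusted p 0.00182, limma). Its exons overlap those of Ctsb on the other strand, at a median of 83.8 RPKM, and whether the counting used strand is not given in the sources used here. Sqle (chr15:59315077-59331192), squalene epoxidase, had 17.9, 22.9 and 32.8 RPKM with DM-aKG and 26.3, 39.6 and 69.5 RPKM in controls, and fell by 0.73 ± 0.23 (adjusted p 0.0191, limma). Lss, which closes the ring, averaged 5.58 ± 0.997 RPKM with DM-aKG and 7.84 ± 2.58 RPKM in controls (SD, n = 6 and 7) and did not pass (log2 change -0.39, adjusted p 0.106, limma).

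Of the 5 genes that strip methyl groups from lanosterol, 4 fell. Cyp51, the lanosterol demethylase, averaged 20.2 ± 3.78 RPKM in DM-aKG libraries and 37.8 ± 9.56 RPKM in control libraries (SD) and fell by 0.85. The others were Tm7sf2, a sterol reductase (-0.65), Msmo1, the C4 methyl sterol oxidase (-0.71), and Nsdhl, the next dehydrogenase (-0.63), whose groups did not overlap at 9.29 to 12.6 RPKM with DM-aKG and 12.9 to 24.6 RPKM in controls. Cyp51 shares exon bases with Akap9 on the other strand and Tm7sf2 with Vps51 on the same strand. Strand cannot separate reads in the bases that Tm7sf2 and Vps51 share. For Cyp51 and Akap9 it could do so only if the counting used strand, which is not given. Hsd17b7, the keto-reductase of this stage, had a change of -0.52 and an adjusted p of 0.0727 (limma).

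The last enzymes of the pathway did not pass this test: Ebp, Sc5d and Dhcr7, which shift, add and remove the last double bonds, had log2 changes of -0.19, -0.24 and -0.08 with adjusted p of 0.279, 0.291 and 0.782 (limma). Dhcr7 ranged over 6.83 to 16.6 RPKM with DM-aKG and 7.03 to 17.3 RPKM in controls, nearly the same span. Whether the last steps differ from the earlier ones in their change was not tested. Stard4, which carries cholesterol between membranes, was the 1 sterol gene above 0. It had 55.9, 67.7 and 75.5 RPKM with DM-aKG and 42.3, 58.2 and 81 RPKM in controls (log2 change 0.15, adjusted p 0.512, limma).

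Both regulators of the sterol branch were lower with DM-aKG. Srebf2 itself had 19.4, 26.8 and 31.2 RPKM in DM-aKG libraries and 29, 38.7 and 45 RPKM in control libraries. DM-aKG replicates 1, 4, 5 and 6 lay below every control library, and the change was -0.47 ± 0.16 (adjusted p 0.0285, limma). Insig1 had 17.7, 20.1 and 25 RPKM with DM-aKG and 26.4, 36.1 and 47.9 RPKM in controls. Its groups did not overlap, and the change was -0.68 ± 0.23 (adjusted p 0.0256, limma).

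The count of 15 depends on how libraries are scaled and on which are used. With quantile normalization, which brings the median of all genes to 0.02, 8 sterol genes fell, and with median-of-ratios scaling 6 fell, and the sterol medians under these scalings were -0.48 and -0.47, against -0.65 as reported. Over all genes tested, the call was 735 higher and 3432 lower as reported, 1750 and 1849 after quantile normalization, and 1532 and 1718 after median-of-ratios scaling. Leaving out 1 library at a time gave 10 to 16 sterol genes, and 8 of the 15 fell in every such fit: Pmvk, Mvd, Idi1, Fdps, Fdft1, Sqle, Cyp51 and Nsdhl. Acat2 lost its call without any 1 of control replicates 1, 2, 4, 6 or 7 or DM-aKG replicates 1, 2 or 5 (adjusted p 0.0529 to 0.113, limma). Hmgcs1 lost it without control replicates 6 or 7 or DM-aKG replicates 1, 5 or 6 (0.0505 to 0.0662), and Srebf2 without control replicates 6 or 7 or DM-aKG replicates 5 or 6 (0.0537 to 0.0774). Insig1 lost it without control replicate 6 or DM-aKG replicate 4 (0.0533 and 0.0557), Msmo1 without control replicate 6 (0.0543), and Mvk and Tm7sf2 without DM-aKG replicate 5 (0.0543 and 0.0519). Hsd17b7 gained a call without DM-aKG replicate 5 or WT replicate 2 (0.0437 and 0.0374).

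Transcripts of other cell types and of dividing cells moved with the treatment as well. Of 14 proliferation genes, 6 fell and 0 rose (median log2 change -0.61), and their sum was 72.1 to 126 RPKM with DM-aKG and 108 to 209 RPKM in controls. With their mean as a covariate, 2 sterol genes passed and the median was -0.43. Of 13 smooth muscle genes 12 rose, with sums of 1090 to 1860 RPKM with DM-aKG and 489 to 1600 RPKM in controls, and with their mean as a covariate 15 sterol genes passed and the median was -0.90. Of 14 absorptive enterocyte genes 6 rose and 0 fell, of 7 pan-epithelial genes 5 fell, of 10 fibroblast genes 1 rose and 5 fell, and of 8 leukocyte genes tested 1 fell. The part of the epithelial, fibroblast and leukocyte genes in the result was not tested. The share of all genes called in the covariate fits is not reported here. Their sterol counts therefore do not show a change particular to the sterol genes.

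**Figure D2:**
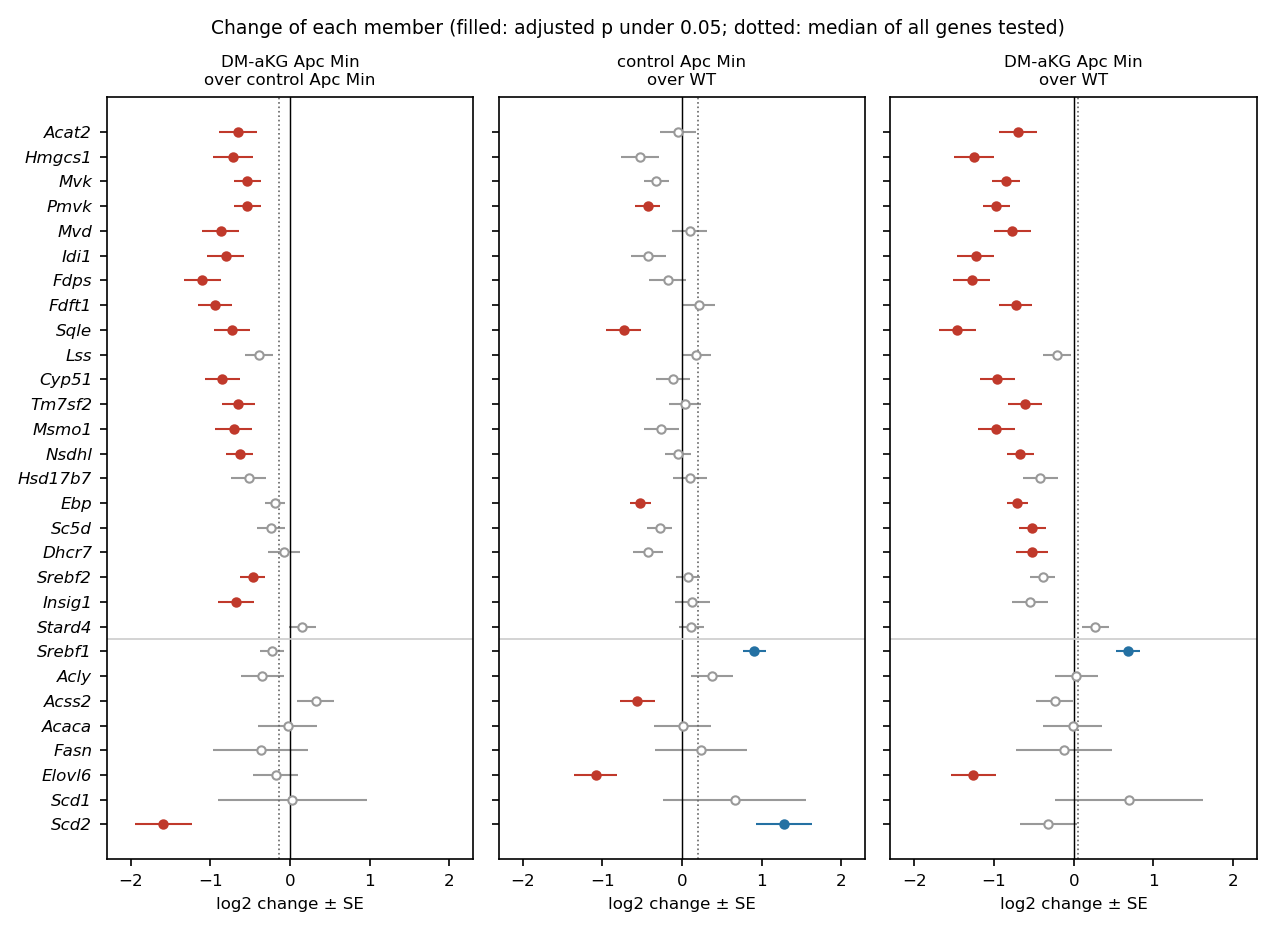
Log2 change ± SE of each of the 29 genes on the log2(RPKM + 1) scale, sterol genes in pathway order above and fatty acid genes below the line, in the 3 comparisons; filled dots passed an adjusted p of 0.05 and the dotted line is the median of all genes tested. In the left panel 15 sterol dots and Scd2 are filled below 0, in the middle panel few are, and in the right panel 16 sterol dots are.

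In the fatty acid branch, Scd2 stood alone in the treatment comparison. Scd2 (chr19:44293674-44306864) and Scd1 (chr19:44394455-44407879, both mm10) are stearoyl-CoA desaturases, close paralogs that put the first double bond into saturated fatty acids, and the authors' counting could split reads between them. Scd2 had 15.5, 49.8 and 72.2 RPKM in DM-aKG libraries, against 90.3, 130 and 180 RPKM in control libraries and 17.5, 66.8 and 103 RPKM in WT libraries. Every control library lay above every DM-aKG library, and the DM-aKG and WT libraries overlapped. Scd2 fell by 1.59 ± 0.36 with DM-aKG (adjusted p 0.00217, limma), the largest log2 change among the 29 genes in that comparison. The call was kept in every fit that left out 1 library, and was lost with replicates 1 to 4 alone (adjusted p 0.0851) and with the proliferation covariate (log2 change -1.01, adjusted p 0.0615). Of the others, Srebf1 had a log2 change of -0.23 with DM-aKG, Acly of -0.35, Acss2 of 0.32, Elovl6 of -0.18, Acaca of -0.03 and Fasn of -0.37, and the lowest of their adjusted p was 0.248 (limma).

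**Figure D3:**
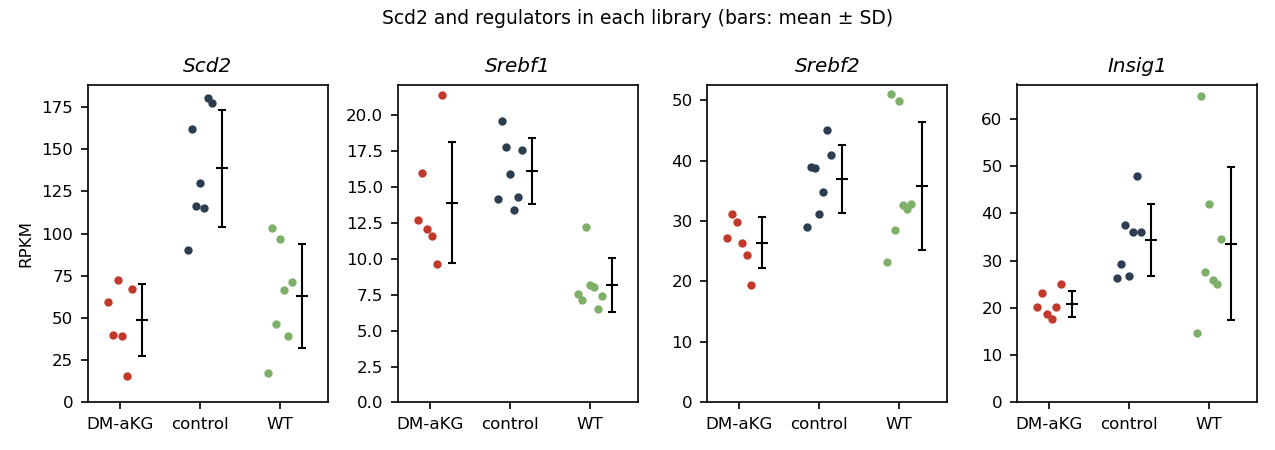
Levels of Scd2, Srebf1, Srebf2 and Insig1 in RPKM in each library of the DM-aKG Apc Min, control Apc Min and WT groups; dots are libraries and the bar beside them is the mean ± SD. Scd2 in control libraries (90.3 to 180 RPKM) lies above all DM-aKG libraries (15.5 to 72.2 RPKM), and Srebf1 is lower in WT than in control libraries.

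Scd1, by contrast, varied far more within groups than between them. Its values with DM-aKG were 34.4, 45.2, 12.5, 41.5, 22.4 and 574 RPKM, in controls 13.8, 69.1, 30.6, 31.3, 31.1, 279 and 54.8 RPKM, and in WT 37.6, 10.9, 482, 34.3, 35.8, 2.9 and 18 RPKM, each in replicate order. In each group 1 library stood far above the rest: DM-aKG replicate 6, control replicate 6 and WT replicate 3. The log2 change with DM-aKG was 0.03 ± 0.93 (adjusted p 0.985, limma). The log2 ratio of Scd2 to Scd1 within a library averaged -0.10 ± 1.8 with DM-aKG, 1.52 ± 1.04 in controls and 0.91 ± 2.39 in WT (SD, n = 6, 7 and 7). By 2-sided exact permutation tests adjusted over 3 comparisons, the ratio did not pass for DM-aKG minus control (-1.62, p 0.0664, adjusted 0.199), control minus WT (0.62, adjusted 0.567) or DM-aKG minus WT (-1.01, adjusted 0.567). The smallest p these tests can give is 0.00117 for 6 against 7 libraries.

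The same 3 libraries led most of the branch. DM-aKG replicate 6 and control replicate 6 were each the highest of their group in 7 of 8 fatty acid genes, and WT replicate 3 in 6 of 8. For Fasn, fatty acid synthase, DM-aKG replicate 6 had 73.3 RPKM, above the 4.54 to 9.4 RPKM of its group. Control replicate 6 had 46.2 RPKM, above 7.77 to 19.2 RPKM, and WT replicate 3 had 82.7 RPKM, above 5.72 to 12.3 RPKM. Acaca, acetyl-CoA carboxylase, and Acly, ATP citrate lyase, were also highest in DM-aKG replicate 6, at 19 and 44.1 RPKM. Adipoq, which fat cells make, was 66.4 RPKM in DM-aKG replicate 6, 61.4 in WT replicate 3, 55.3 in control replicate 6 and 45.3 in DM-aKG replicate 4, where Scd1 (41.5 RPKM) and Fasn (7.9 RPKM) were not high. Of 10 adipocyte genes 9 were tested and 0 passed between DM-aKG and control (limma, lowest adjusted p 0.0856, with 3 at an unadjusted p under 0.05), with sums of 376 to 982 RPKM with DM-aKG, 214 to 711 RPKM in controls and 86.4 to 976 RPKM in WT. Lep, the gene that was not tested, was at 0 in some libraries.

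**Figure D4:**
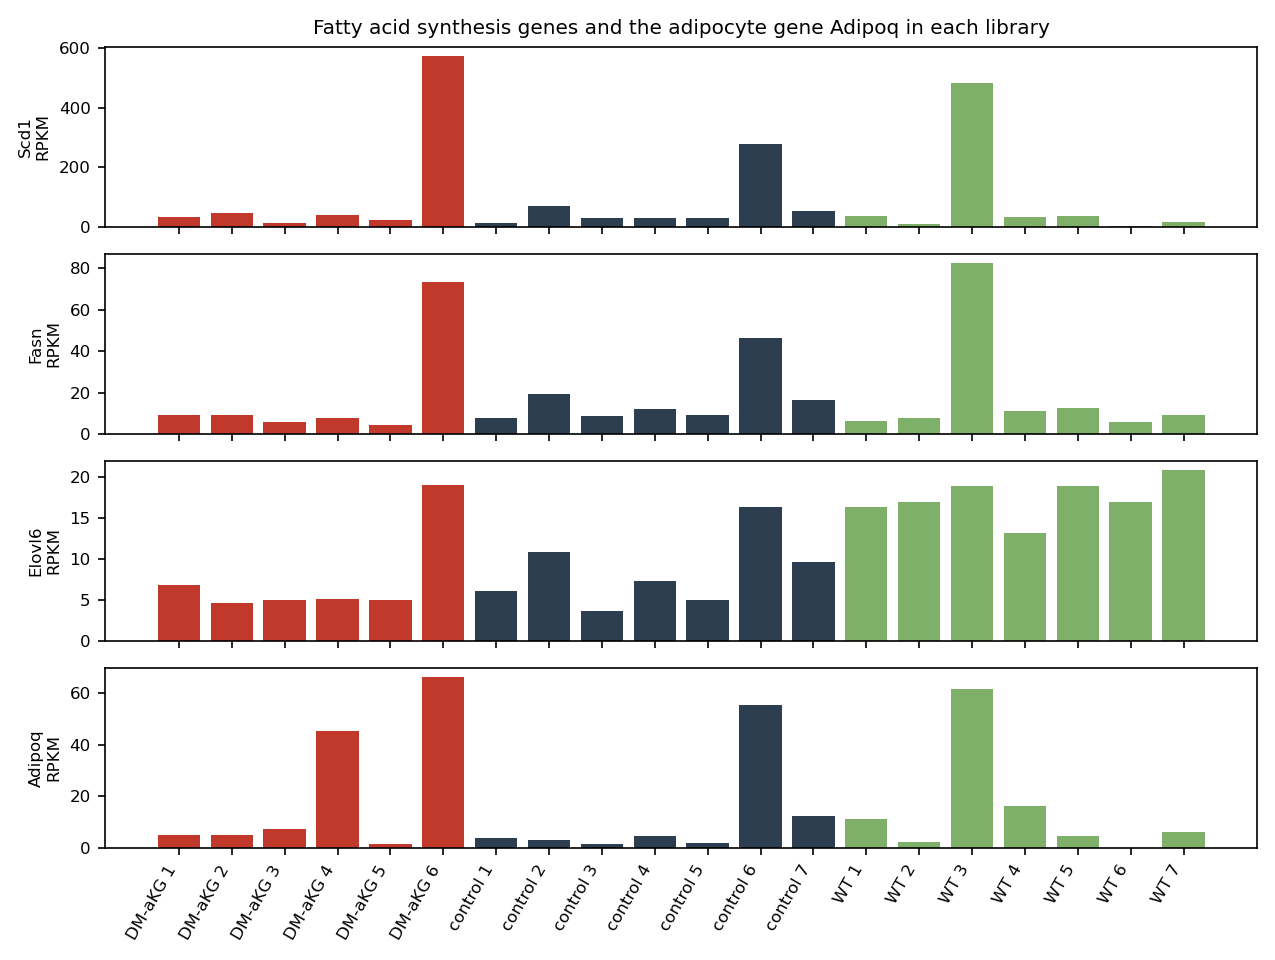
Levels of Scd1, Fasn, Elovl6 and the adipocyte gene Adipoq in RPKM in each of the 20 libraries, 1 bar per library, with DM-aKG Apc Min left, control Apc Min in the middle and WT right. DM-aKG replicate 6, control replicate 6 and WT replicate 3 stand above their groups in Scd1, Fasn and Adipoq, and DM-aKG replicate 4 is also high in Adipoq.

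Without the 4 libraries highest in Adipoq, the fatty acid genes still gave 1 call with DM-aKG, Scd2, at a log2 change of -1.64 (adjusted p 0.0157, limma). Scd1 was then -0.39 (adjusted p 0.673), Fasn -0.66 (adjusted p 0.0861) and Srebf1 -0.36 (adjusted p 0.051). Of the sterol genes 4 fell in that smaller set, with a median change of -0.56. With the mean of the adipocyte genes as a covariate and all libraries kept, 14 sterol genes and Scd2 fell, and Fasn was -1.06 (adjusted p 0.0519).

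The libraries that led the sterol genes were not all those that led the fatty acid genes. WT replicate 2 was the highest of its group in 20 of 21 sterol genes, at a sum of 1430 RPKM, and WT replicate 1 the lowest in 17. Control replicate 6 was the highest of its group in 16 sterol genes and in 7 fatty acid genes. DM-aKG replicate 6, which led the fatty acid genes, was highest in 2 of 21 sterol genes. The DM-aKG group was the narrowest for the sterol branch, with a mean log2(RPKM + 1) of 3.95 to 4.36, against 4.31 to 5.14 in controls and 4.36 to 5.61 in WT.

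**Figure D5:**
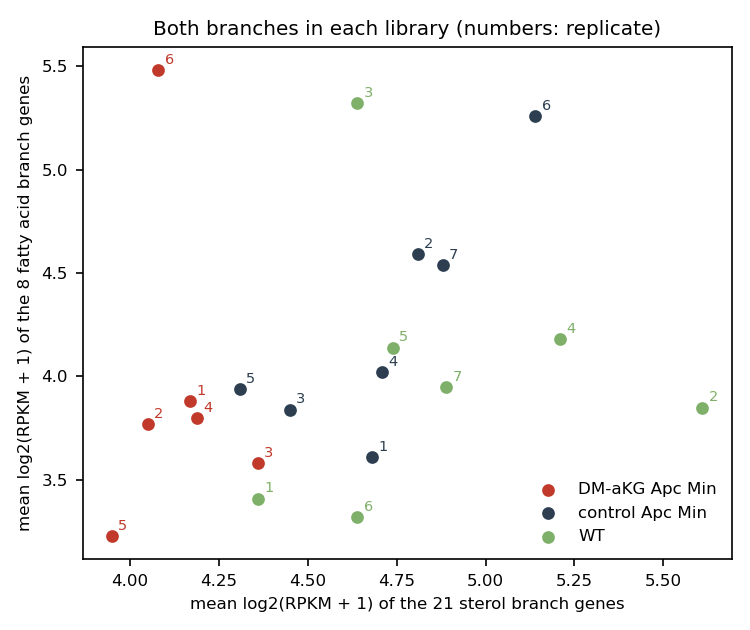
Mean log2(RPKM + 1) of the 21 sterol genes (horizontal) and of the 8 fatty acid genes (vertical) in each library; colours are groups and numbers are replicates. DM-aKG libraries lie at the left (3.95 to 4.36), overlapping at the edge with control libraries (from 4.31). DM-aKG 6, control 6 and WT 3 lie highest on the vertical axis.

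The second comparison asks what differed between Apc Min and WT without DM-aKG. Between control Apc Min and WT libraries few sterol genes differed, and the fatty acid branch split. Of 21 sterol genes 3 fell (14.3%), where 15.7% of all genes tested fell and 43.2% rose, and their median was -0.11, against 0.20 over all genes. In the fatty acid branch 2 of 8 rose, Srebf1 and Scd2, and 2 fell, Acss2 and Elovl6.

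Srebf1 (chr11:60199089-60222581) had the lowest adjusted p of the 29 genes in this comparison. Its values were 14.2, 19.6, 17.8, 15.9, 13.4, 14.3 and 17.6 RPKM in control libraries, against 7.57, 7.17, 12.2, 8.2, 8.07, 6.49 and 7.45 RPKM in WT libraries. Every control library was above every WT library. The log2 change was 0.91 ± 0.14 (adjusted p 2.42e-05, limma), and 1.03 without the 4 libraries highest in Adipoq. Srebf1 shares exon bases with Rai1 on the other strand, at a median of 2.22 RPKM.

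Scd2 was 1.28 higher on the log2 scale (adjusted p 0.0039, limma), with the WT libraries reaching 103 RPKM and thus into the control range. Elovl6, which lengthens palmitate to stearate, went the other way. It had 3.7, 7.28 and 16.3 RPKM in control libraries and 13.2, 17 and 20.9 RPKM in WT libraries, where only control replicate 6 reached into the WT range, and the change was -1.08 (adjusted p 0.00201, limma). Acss2, which makes acetyl-CoA from acetate, averaged 6.02 ± 2.36 RPKM in controls and 9.3 ± 3.21 RPKM in WT (SD, n = 7 each) and fell by 0.56 (adjusted p 0.0337, limma), a call lost without any 1 of control replicates 1, 3, 4 or 5 or WT replicates 2 to 5 (adjusted p 0.0518 to 0.0861). Its exons overlap Gss on the other strand, at a median of 32.1 RPKM.

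The sterol genes that fell were Ebp, Sqle and Pmvk. Ebp, the sterol isomerase, had 13.2, 22 and 24.6 RPKM in controls and 25.3, 28.3 and 35.5 RPKM in WT, with no overlap, and fell by 0.52 ± 0.13 (adjusted p 0.00168, limma). Sqle fell by 0.73 (adjusted p 0.00771) and Pmvk by 0.43 (adjusted p 0.0312), the last of which did not pass without any 1 of control replicates 3 or 5 or WT replicates 2 or 4 (adjusted p 0.0541 to 0.081). The count was 8 after median-of-ratios scaling, 5 after quantile normalization and 0 with the smooth muscle covariate, and over all genes tested 5368 rose and 1948 fell as reported, 3277 and 3420 after median-of-ratios scaling, and 3239 and 3348 after quantile normalization. Without WT replicates 2 and 4, the highest in sterol genes, 2 rose, Fdft1 and Insig1, and 1 fell. Of the cell type lists, 12 of 13 smooth muscle genes, 7 of 14 absorptive enterocyte genes and 7 of 8 leukocyte genes fell in controls relative to WT, and 6 of 10 fibroblast genes rose. Against these directions 1 absorptive enterocyte gene rose and 1 fibroblast gene fell. Of 7 pan-epithelial genes 1 rose and 2 fell, and of 14 proliferation genes 1 rose and 0 fell. The summed smooth muscle level was 489 to 1600 RPKM in controls and 1210 to 2060 RPKM in WT, and that of the leukocyte genes 52.4 to 132 and 261 to 750 RPKM.

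The third comparison sets treated Apc Min libraries against WT, and shares its libraries with the other 2 comparisons. Of 21 sterol genes 16 fell (76.2%) and 0 rose, where 17.3% of all genes tested fell and 21.9% rose, with a median of -0.71 against 0.05 over all genes. Sqle fell most, at 17.9 to 32.8 RPKM in DM-aKG libraries and 43.4 to 121 RPKM in WT libraries, with no overlap (log2 change -1.46, adjusted p 9.77e-05, limma). Hmgcs1, Fdps, Idi1, Mvk, Pmvk and Ebp did not overlap between the groups either, with changes of -1.25, -1.28, -1.23, -0.85, -0.97 and -0.71. The share of all genes without overlap is not reported here, so this is not shown to be particular to sterol genes. Ebp, Sc5d and Dhcr7, the last enzymes, all passed here (-0.71, -0.52 and -0.52), while Srebf2 (-0.39, adjusted p 0.0585) and Insig1 (-0.55, adjusted p 0.0578) did not (limma). Leaving out 1 library gave 12 to 18 calls, and 12 of the 16 passed in every such fit. Dhcr7 lost its call without any 1 of 10 libraries of the 3 groups (adjusted p 0.0504 to 0.134), Acat2 without DM-aKG replicates 2 or 5 or WT replicate 2 (0.056 to 0.0765), Tm7sf2 without DM-aKG replicate 5 or WT replicates 2 or 4 (0.0555 to 0.0657), and Sc5d without DM-aKG replicates 2 or 5 (0.0595 and 0.0611). Without WT replicate 1, Srebf2 and Insig1 passed (0.0201 and 0.0083, limma). The count was 15 after quantile normalization, 18 after median-of-ratios scaling and 11 without WT replicates 2 and 4. Of 14 proliferation genes 9 fell in this comparison, with sums of 72.1 to 126 RPKM with DM-aKG and 92.1 to 181 RPKM in WT, and with their mean as a covariate 9 sterol genes fell. Of the leukocyte genes 7 of 8 fell, of the adipocyte genes 2 of 9 rose, and of the smooth muscle genes 0 of 13 passed (limma, 1 at an unadjusted p under 0.05). Of 7 pan-epithelial genes 3 fell, of 14 absorptive enterocyte genes 3 rose and 3 fell, and of 10 fibroblast genes 3 rose and 1 fell.

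In the fatty acid branch 1 gene rose and 1 fell between DM-aKG and WT libraries. Srebf1 averaged 13.9 ± 4.22 RPKM in DM-aKG libraries and 8.16 ± 1.85 RPKM in WT libraries (SD, n = 6 and 7), a log2 change of 0.68 (adjusted p 0.00169, limma). Elovl6 had 4.64, 5.1 and 19 RPKM with DM-aKG and 13.2, 17 and 20.9 RPKM in WT, where DM-aKG replicate 6 alone reached into the WT range (-1.26, adjusted p 0.00186, limma). Scd2 did not pass (-0.32, adjusted p 0.502).

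Genes around both pathways were followed in 5 lists. Among all genes tested 5.91% rose and 27.6% fell with DM-aKG relative to control, 43.2% rose and 15.7% fell in controls relative to WT, and 21.9% rose and 17.3% fell with DM-aKG relative to WT. The shares of the list genes called are to be read against these, and where they lie near them the count says nothing particular of the list. Of 16 genes of sterol uptake, storage and SREBP control, 0 rose and 4 fell with DM-aKG relative to control. Soat1, which esterifies cholesterol for storage, averaged 2.88 ± 0.874 RPKM with DM-aKG, 8.5 ± 1.74 RPKM in controls and 2.59 ± 0.747 RPKM in WT (SD), with changes of -1.30 (adjusted p 4.03e-06) for DM-aKG over control and 1.41 (adjusted p 2.73e-07) for control over WT (limma). Scap averaged 7.43 ± 0.736 RPKM with DM-aKG, 10.2 ± 1.3 RPKM in controls and 6.66 ± 1.38 RPKM in WT, a change of -0.41 (adjusted p 0.00913, limma) with DM-aKG. That call on Scap was lost with median-of-ratios scaling, with replicates 1 to 4 or 5 to 7 alone, with the smooth muscle or the proliferation covariate and without the 4 libraries highest in Adipoq (adjusted p up to 0.141). Against WT, 7 of the 16 rose and 3 fell in controls, and 1 rose and 4 fell with DM-aKG. Npc1l1, through which enterocytes take up cholesterol, had a log2 change of -1.55 (adjusted p 4.58e-05) for control over WT, and Soat2, which esterifies it there, of -1.61 (adjusted p 9.13e-05). Cyp27a1, a sterol hydroxylase, was 1.18 higher on the log2 scale in controls than in WT (adjusted p 0.000193, limma, and 0.128 with replicates 5 to 7 alone).

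Of 10 sterol export and LXR target genes, 3 rose and 2 fell with DM-aKG relative to control. Abcg5 and Abcg8, the partner subunits of the pump that returns sterols to the gut lumen, were 0.64 and 0.63 higher (adjusted p 0.0332 and 0.0283, limma), of which Abcg5 did not pass without any 1 of control replicates 3, 5, 6 or 7 or DM-aKG replicates 1 or 6 (0.0547 to 0.083), nor Abcg8 without DM-aKG replicate 1 (0.0637). Over all alternatives the adjusted p of Abcg5 reached 0.551 and that of Abcg8 0.313. Abcg1, a sterol exporter, had a change of -0.37 and Scarb1, a lipoprotein receptor, of -0.49 (adjusted p 0.00561 and 0.00605, limma), which 4 and 6 of the alternatives ended, both replicate sets and the smooth muscle covariate among them (adjusted p up to 0.251 and 0.265). In this list 4 rose and 1 fell in controls relative to WT, and 4 rose and 0 fell with DM-aKG relative to WT.

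Of 20 genes that supply or modify fatty acids, 2 rose and 9 fell with DM-aKG relative to control. Mid1ip1, which activates acetyl-CoA carboxylase, averaged 12.7 ± 2.6 RPKM with DM-aKG and 23.9 ± 4.34 RPKM in controls (SD) and fell by 0.87 (adjusted p 5.43e-05). Acsl3, an acyl-CoA synthetase, averaged 20.1 ± 6.28 RPKM with DM-aKG, 40.2 ± 8.01 RPKM in controls and 6.6 ± 0.85 RPKM in WT. It fell by 0.99 with DM-aKG (adjusted p 0.000114) and was 2.42 higher in controls than in WT (adjusted p 3.79e-10, limma). Pgd, which makes NADPH in the pentose phosphate path, fell by 0.70 (adjusted p 0.000135), and Hacd3, of fatty acid elongation, by 0.43 (adjusted p 0.000434, limma). With replicates 5 to 7 alone the calls on Acsl3 and Pgd for DM-aKG over control were lost (adjusted p 0.0832 and 0.0702). Against WT, 6 of the 20 rose and 3 fell in controls, and 3 rose and 7 fell with DM-aKG.

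Of 12 glycerolipid synthesis genes, 1 rose with DM-aKG relative to control, Lpin3, a phosphatidate phosphatase (0.35, adjusted p 0.027, and 0.053 to 0.061 without any 1 of control replicates 5 to 7 or DM-aKG replicates 1 to 3, up to 0.321 over all alternatives), while 2 rose and 5 fell in controls relative to WT and 3 rose and 2 fell with DM-aKG relative to WT. Of 12 genes that turn farnesyl diphosphate to dolichol, ubiquinone and prenyl groups, 0 passed with DM-aKG relative to control (limma, 3 lower at an unadjusted p under 0.05), with a median of -0.14. In that list 4 rose in controls relative to WT and 1 fell with DM-aKG relative to WT.

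The replicate numbers fall into the sets 1 to 4 and 5 to 7, a split known from earlier results of these data and not given as a batch by the labels. The DM-aKG group has no replicate 7, so its second set holds only replicates 5 and 6. Its replicate 6 was the library highest in Adipoq (66.4 RPKM). The sterol median with DM-aKG relative to control was -0.52 in the first set and -0.84 in the second, with 20 of 21 genes below 0 in each. The number that passed was 2 and 10, and the share of all genes called in each set alone is not reported here. No sterol gene passed a test of the difference between sets (lowest adjusted p 0.454, limma). For control relative to WT the sterol medians were -0.26 and -0.01, and for DM-aKG relative to WT -0.72 and -0.77. The fatty acid medians were -0.26 and 0.01, -0.43 and 0.87, and -0.36 and 0.55 in the 3 comparisons, and no gene of the branch passed the test of the difference (lowest adjusted p 0.618, limma).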

How the data were processed

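RNA levels of 20 mouse libraries came from a table of 24795 genes, and groups from the sample labels. The authors deposited values that are not whole and sum to 277634 to 369409 per library, read here as RPKM, a unit inferred from the values. Per the submitters' processing notes, the tools were CASAVA 1.8, HISAT2 2.0.4 and Partek, and the genome was mm10. Their roles, the gene models and the strand setting were not given. RPKM is relative to the library total, so abundant genes that change move all others. Steps between low values gave an estimated depth of 21.2 to 29.3 M reads, but 69.0 to 74.9% of values lay within 0.1 read of a whole number (20% if evenly spread), too few to rebuild counts.

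The filter kept the 12433 genes that reached 1 RPKM in 6 or more libraries. Their log2(RPKM + 1) was fitted over all libraries in 3 groups with limma 3.58.1 (trend, robust, statmod 1.5.0) in R 4.3.3, after tests on simulated data, with calls 2-sided at a Benjamini-Hochberg adjusted p under 0.05. Fold changes on this scale understate those of low genes. The Scd2 to Scd1 ratio had exact permutation tests (scipy 1.17.1, Python 3.11.15). Gene positions are from GENCODE M21. The members and gene lists were chosen with earlier results of these data known. Every member is accounted for, and of each other list up to 4 genes with the lowest p per comparison could be named, some of which are not reported here. Alternatives varied scaling, filter, pseudocount, weights, libraries, covariates and a replicate block. Leaving out the 4 libraries highest in Adipoq, leaving out WT replicates 2 and 4, and the proliferation covariate were added after seeing the data.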

Additional observations from a re-analysis of the deposited data

Results flagged for a closer look

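Single libraries far from the rest of their group were looked for with Dixon's test at its 95% critical value in the 87 combinations of a gene and a group, on the log2(RPKM + 1) scale. Of these 8 stood out, and chance alone flags about 1 in 20 groups. In DM-aKG replicate 6 the level was far above the other DM-aKG libraries for 5 fatty acid genes: Scd1 was 574 RPKM against 12.5 to 45.2 RPKM, Fasn 73.3 RPKM against 4.54 to 9.4 RPKM, Acaca 19 RPKM against 3.38 to 6.09 RPKM, Acly 44.1 RPKM against 14.7 to 20.2 RPKM, and Elovl6 19 RPKM against 4.64 to 6.87 RPKM. In WT replicate 3 Fasn was 82.7 RPKM against 5.72 to 12.3 RPKM in the other WT libraries, and Srebf1 12.2 RPKM against 6.49 to 8.2 RPKM. The 1 sterol gene that stood out was Pmvk in WT replicate 2, at 20 RPKM against 9.98 to 13.3 RPKM. On the RPKM scale itself 15 combinations stood out, among them Scd1 in control replicate 6 (279 RPKM) and in WT replicate 3 (482 RPKM). Adipoq was 66.4 RPKM in DM-aKG replicate 6 and 61.4 RPKM in WT replicate 3, and its part in these values was not tested beyond the fits given above. No member differed between the replicate sets 1 to 4 and 5 to 7 by the test of that difference.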

How the results depend on the processing

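The sterol median with DM-aKG relative to control was below 0 in the fits without single library omissions, from -0.896 to -0.434, and the number of calls moved. For DM-aKG over control, 15 sterol genes became 8 with quantile normalization, 6 with median-of-ratios scaling, 2 with replicates 1 to 4, 4 without the 4 libraries highest in Adipoq and 2 with the proliferation covariate, and 1 fatty acid gene became 2 with array weights, 0 with replicates 1 to 4 and 0 with the proliferation covariate. For control over WT, 3 sterol genes became 5 and 8 under the 2 scalings, 0 with replicates 5 to 7, 0 with the smooth muscle covariate, 6 without the 4 libraries and 6 with the proliferation covariate, and 4 fatty acid genes became 1 with replicates 5 to 7 and 1 with the smooth muscle covariate. For DM-aKG over WT, 16 sterol genes became 10 and 2 with replicates 1 to 4 and 5 to 7, and 9 with the proliferation covariate, and 2 fatty acid genes became 0 with replicates 5 to 7. Fits on part of the libraries have fewer samples, and the cause of the other moves was not tested. Apart from the 2 scalings, the share of all genes called in these fits is not reported here. Such counts therefore do not show a move particular to the members. Leaving out 1 library gave 10 to 16, 2 to 6 and 12 to 18 sterol calls and 1 to 1, 3 to 4 and 2 to 2 fatty acid calls in the 3 comparisons, and Scd2 to Scd1 differences of -2.13 to -1.03, -0.09 to 1.03 and -1.72 to -0.41. The -0.09 for control minus WT, without WT replicate 3, turned the direction. With replicates 1 to 4 alone the ratio differences were -1.19 (DM-aKG minus control), 1.89 (control minus WT) and 0.70 (DM-aKG minus WT), and with replicates 5 to 7 alone -2.76, -1.09 and -3.84. The direction against WT thus differed between the replicate sets, and none of these 6 passed (exact permutation tests, lowest adjusted p 0.4), which replicates 5 to 7 are too few to do. Under median-of-ratios scaling Osbp (DM-aKG over control) became 0.17 and Nr1h2 (control over WT) -0.23, and with the smooth muscle covariate Pmvk (control over WT) became 0.04. Same-numbered libraries did not deviate together as a rule, with correlations of -0.457 to 0.604. The library of the same number was the closest partner in 1 of 6, 1 of 7 and 0 of 6 pairs in the 3 comparisons. With the replicate block the calls were 14, 3 and 15 sterol genes and 1, 4 and 2 fatty acid genes, and the ratio differences -1.60, 0.62 and -0.84. Of the alternatives for single members, 2912 kept their side of the threshold, 176 lost a call, 43 gained one, and 1 called value (Pmvk, above) changed sign and did not pass. Among the 1656 alternatives to values not called as reported, 126 had the opposite sign, and 0 of these passed (limma). RPKM gives no counting error, so depth behind low genes is not known gene by gene.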
